A study of Homo sapiens with 4 samples.

Results

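Aminoacyl-tRNA synthetases are the enzymes that join each amino acid to its transfer RNA, and 36 of their genes were examined here in HuH7 cells with and without a knockout of KDM6B. The members were taken by name, 20 cytosolic and 16 mitochondrial, and a gene was measured where a probe set of the array carries its symbol alone. That held for 33 of the 19775 genes measured, 18 cytosolic and 15 mitochondrial, read by 69 probe sets. MARS1, QARS1 and TARS2 share their probe sets with microRNA genes in the annotation and were not analysed here. Each gene was represented by its brightest probe set over all 4 arrays, chosen without regard to group.

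HuH7 is an established human hepatocellular carcinoma line. The wild-type group was 2 arrays of HuH7 with intact KDM6B, and the knockout group was 2 arrays of HuH7 transfected with a Cas9 vector and a vector for a guide against KDM6B, which encodes a histone H3 demethylase. Knockout cells were selected with G418 and cloned by limiting dilution, and the labels leave unsaid whether the knockout samples shared a subclone and whether replicates were grown separately. The p-values reflect only the spread of these samples, possibly a technical one, and an effect of KDM6B loss and a difference between a subclone and its parental population cannot be told apart. Values are log2 expression values, so a difference of 1 is 2-fold, and a difference is the knockout level minus the wild-type level, given with its standard error (SE) from the limma fit. A gene was called at a Benjamini-Hochberg adjusted p under 0.05 over all genes.

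Most amino acids have a cytosolic enzyme, which charges transfer RNA for the main ribosomes, and a separate nuclear-encoded enzyme for the mitochondrial ribosomes. GARS1 and KARS1, for glycine and lysine, are single genes that supply both compartments and are counted here with the cytosolic enzymes. Part of the cytosolic set is held in a multisynthetase complex with scaffold proteins. When amino acids run short, uncharged transfer RNA activates the kinase GCN2, translation of the transcription factor ATF4 increases, and ATF4 induces many cytosolic synthetases together with enzymes and transporters of amino acids, through a composite element that it binds with C/EBP proteins.

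The sequence TTGCATCA, which reads TGATGCAA on the other strand and is the core of that element, was searched on both strands of RefSeq promoter windows of GRCh38.p14, each running from 250 bases before to 50 after a gene's start. It was present in a window of 5 of the 14 measured cytosolic members that had a window and in 0 of 13 mitochondrial ones, against 0.866% of all 35116 windows and 1.08% of genes. The 5 stretches of 30 bases are those of every measured member with the element, whatever its difference. Capitals mark the element, each stretch is written 5′ to 3′ along the gene, and positions count the start as +1.
AARS1, chr16:70289675-70289704, minus strand, element at -187 to -180: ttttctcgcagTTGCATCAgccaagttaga
CARS1, chr11:3057407-3057436, minus strand, element at -2 to +6: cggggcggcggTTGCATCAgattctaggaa
IARS1, chr9:92293692-92293721, minus strand, element at -13 to -6: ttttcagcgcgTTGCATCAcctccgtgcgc
NARS1, chr18:57621804-57621833, minus strand, element at +15 to +22: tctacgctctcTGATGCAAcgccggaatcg
TARS1, chr5:33440956-33440985, plus strand, element at +3 to +10: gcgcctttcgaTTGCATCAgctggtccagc
LARS1, TARS3, VARS1, YARS1, AARS2 and VARS2 had no window in the table. Of the 5 genes with the element IARS1 and CARS1 were called lower and AARS1, NARS1 and TARS1 were not. The other called genes WARS1, SARS1, EPRS1 and GARS1 had a window without the element, and YARS1 had no window. Over all 144 measured genes with the element the median log2 difference was 0.00, and 5.56% were called lower, against 4.10% of the 15384 measured genes with a window.

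Tryptophanyl-tRNA synthetase and isoleucyl-tRNA synthetase had the largest falls of the family. The 150 bases before their starts are shown beside those of their mitochondrial partners, with capitals for CCAAT or its reverse complement ATTGG and for TTGCATCA. WARS1 and WARS2 had 2 windows each, and only the stretch of the most upstream start is shown and counted for each. CCAAT was present on either strand in 23.5% of such 150-base stretches over all windows.
WARS1, chr14:100376328-100376477, minus strand: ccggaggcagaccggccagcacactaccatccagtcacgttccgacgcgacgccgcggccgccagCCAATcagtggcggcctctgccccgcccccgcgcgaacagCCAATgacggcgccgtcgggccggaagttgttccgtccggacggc
WARS2, chr1:119140673-119140822, minus strand: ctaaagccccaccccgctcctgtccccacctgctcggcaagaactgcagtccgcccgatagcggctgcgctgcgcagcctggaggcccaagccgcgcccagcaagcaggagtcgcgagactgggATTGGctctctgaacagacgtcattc
IARS1, chr9:92293698-92293847, minus strand: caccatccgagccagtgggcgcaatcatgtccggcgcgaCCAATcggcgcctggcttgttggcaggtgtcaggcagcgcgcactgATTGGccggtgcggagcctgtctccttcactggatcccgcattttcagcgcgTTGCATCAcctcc
IARS2, chr1:220093982-220094131, plus strand: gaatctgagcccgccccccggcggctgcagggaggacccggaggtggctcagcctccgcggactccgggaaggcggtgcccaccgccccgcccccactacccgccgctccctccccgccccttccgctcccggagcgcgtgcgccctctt
The stretches of WARS1 and IARS1 each held 2 CCAAT matches, that of WARS2 held 1 and that of IARS2 held 0. This order did not hold over the family, since CCAAT was in a whole window of 6 of 14 cytosolic and 8 of 13 mitochondrial members, against 39.7% of genes. A match is a description of these letters and does not show binding, and no measure of binding was at hand.

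Of 18 cytosolic synthetases measured, 7 fell in knockout (WARS1, IARS1, SARS1, CARS1, EPRS1, YARS1 and GARS1), 0 rose and 11 did not pass, where 3.94% of all genes were called lower and 3.14% higher. Their log2 differences had a median of -0.40, from -1.04 to 0.01, and 17 of the 18 were below 0, against a median of 0.01 and 48% below 0 over all genes. Of the mitochondrial synthetases 0 of 15 were called in either direction, with a median of -0.25, a range of -0.70 to 0.11 and 13 below 0. At an unadjusted limma p under 0.05, 13 cytosolic and 7 mitochondrial members were lower, against 11.3% of all genes. The members were chosen with earlier results of these data known, so these counts are a description.

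WARS1, which charges tryptophan and is also known as an interferon-induced gene, had log2 values of 9.44 and 9.35 in wild type, against 8.40 and 8.30 in knockout. Both knockout arrays lay about a full log2 unit below both wild-type arrays, a 2.06-fold fall (log2 difference -1.04, SE 0.10, adjusted p = 0.0065). Its other probe set gave -0.86 and was called as well when every probe set was tested (adjusted p = 0.023). IARS1, the isoleucine enzyme of the multisynthetase complex, read 12.33 and 12.14 in wild type, against 11.42 and 11.39 in knockout. The groups were clearly apart, with a 1.77-fold fall (-0.83, SE 0.09, adjusted p = 0.010).

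SARS1, the serine enzyme, read 10.30 and 10.38 in wild type, against 9.79 and 9.48 in knockout. It fell 1.63-fold (-0.70, SE 0.12, adjusted p = 0.034), and knockout 2 was the lower of the knockout arrays. A dimmer SARS1 probe set gave -0.47 and was not called. CARS1, for cysteine, read 10.16 and 10.23 against 9.56 and 9.44. That was a 1.62-fold fall (-0.69, SE 0.09, adjusted p = 0.015), and 3 of its 4 probe sets were called, the fourth being dim at a mean of 3.51. EPRS1 encodes a fused enzyme for glutamate and proline that belongs to the complex. It read 11.28 and 11.15 in wild type, against 10.60 and 10.73 in knockout, a log2 difference of -0.55 (SE 0.09, adjusted p = 0.030), and its 3 probe sets gave -0.74 to -0.52.

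YARS1, for tyrosine, read 11.49 and 11.65 in wild type, against 11.11 and 10.99 in knockout. The groups did not overlap and the difference was -0.52 (SE 0.10, adjusted p = 0.038). A dimmer and more specific YARS1 probe set gave -0.10 and was not called, and the mean of both gave -0.31 (adjusted p = 0.15). The brighter one also did not pass when every probe set was tested (adjusted p = 0.054). GARS1, the bifunctional glycine enzyme, read 12.26 and 12.29 in wild type, against 11.91 and 11.80 in knockout. This was the smallest called difference of the family, -0.42 (SE 0.08, adjusted p = 0.043), and it did not pass when every probe set was tested (adjusted p = 0.063).

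**Figure D1:**
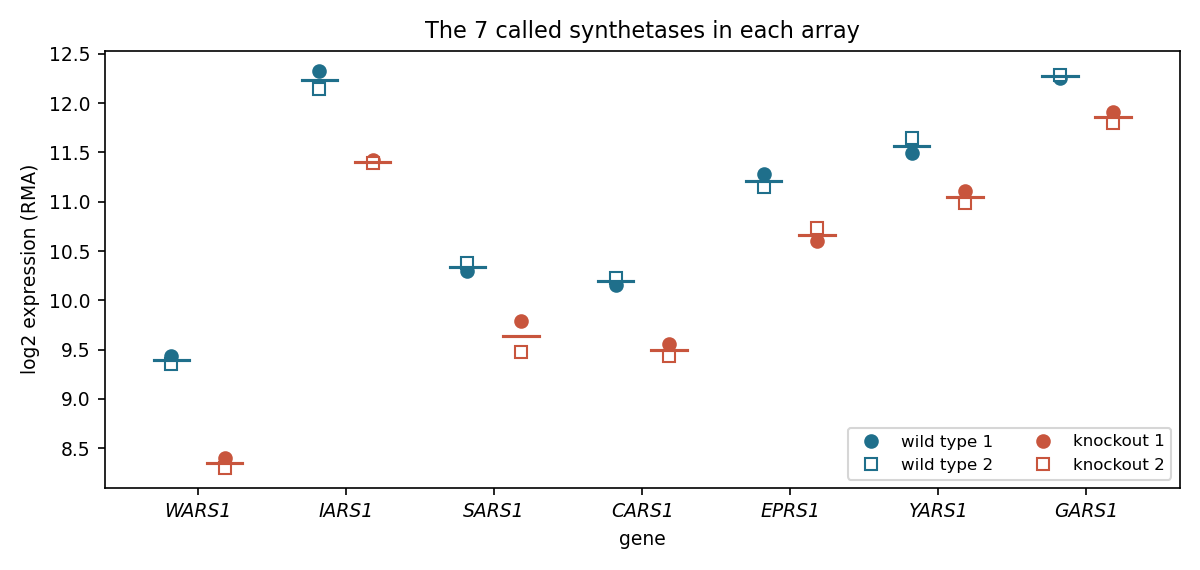
Log2 expression of the 7 called synthetases in each of the 4 arrays, with short lines at the group means. For every one of these genes both knockout arrays lie below both wild-type arrays, and the gap is widest for WARS1 (-1.04) and narrowest for GARS1 (-0.42).

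Among the 11 cytosolic members that did not pass, 9 also had both knockout arrays below both wild-type arrays, so that 16 of the 18 did, against 23.5% of all genes. LARS1 and TARS3 had lower differences than the called GARS1 (-0.42), though not than the other called genes. LARS1 had an adjusted p just past the threshold, and TARS3 had a wider spread. LARS1, the leucine enzyme and a leucine sensor, read 10.15 and 9.99 in wild type, against 9.56 and 9.67 in knockout (-0.46, SE 0.10, adjusted p = 0.060). Its 4 probe sets gave -0.54 to -0.16, and the lowest was called when every probe set was tested (adjusted p = 0.044). TARS3, a threonyl-tRNA synthetase paralogue, read 7.36 and 6.75 against 6.43 and 6.66 (-0.51, SE 0.23, adjusted p = 0.294), and its other probe set gave 0.11.

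TARS1 (threonine) differed by -0.36 (adjusted p = 0.075). The differences of FARSB (-0.39), AARS1 (-0.37), HARS1 (-0.33), NARS1 (-0.33), VARS1 (-0.27) and FARSA (-0.19) had adjusted p between 0.132 and 0.345. FARSA and FARSB are the subunits of phenylalanyl-tRNA synthetase, and the other 4 charge alanine, histidine, asparagine and valine. The second VARS1 probe set gave 0.17 and the second FARSA probe set -0.50. RARS1 and KARS1 were nearest to 0. RARS1, for arginine, read 10.08 and 10.17 in wild type, against 10.00 and 10.11 in knockout, so the groups overlapped (-0.07, 95% interval -0.30 to 0.16). KARS1, the bifunctional lysine enzyme, read 12.83 and 12.88 against 12.86 and 12.86 (0.01, interval -0.18 to 0.19), and its other probe set gave 0.03.

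The bifunctional genes thus gave -0.42 (GARS1) and 0.01 (KARS1), and the difference between them was not tested. Of the 5 measured enzymes of the multisynthetase complex, EPRS1 and IARS1 fell and LARS1, RARS1 and KARS1 did not pass, with a median of -0.46. Outside the complex 5 of 13 fell, with a median of -0.39, where 3.94% of all genes were called lower. The scaffold gene AIMP1 read 10.03 and 9.83 in wild type, against 9.57 and 9.67 in knockout, a difference that missed the threshold (-0.31, adjusted p = 0.177). Synthetases fall into classes by the fold of the catalytic domain. Of the cytosolic class I enzymes 4 of 7 fell (median -0.52), and of class II 2 of 10 (median -0.37); EPRS1 holds an enzyme of each class.

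The cytosolic members were also split by whether they are known as targets of ATF4. All 7 called genes lay among the 12 measured members known as targets, whose median was -0.49, and each of the 12 had both knockout arrays below both wild-type arrays. Over all genes 3.94% were called lower and 23.5% had the groups apart in this way. Among genes at least as bright as the dimmest synthetase the shares were 7.09% and 35.7%. The known targets were brighter than the other cytosolic enzymes, with medians of mean log2 values of 10.77 and 9.53. Of the 6 other measured cytosolic enzymes (FARSA, FARSB, HARS1, KARS1, RARS1 and TARS3) 0 were called, 1 had an unadjusted limma p under 0.05, and the median was -0.26. Both knockout arrays lay below both wild-type arrays in 4 of these 6 as well, and 5 had a difference below 0. The medians by array, against the wild-type mean of each gene, were -0.48 and -0.51 in the knockout arrays for the known targets and -0.16 and -0.30 for the others. These lists were chosen with earlier results of these data known, so the split is a description, and the difference between them was not tested.

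Among the mitochondrial synthetases, none of which was called, MARS2, for methionine, had the largest difference. It read 7.52 and 7.14 in wild type, against 6.71 and 6.54 in knockout. The groups did not overlap, but wild-type arrays were far apart and the gene did not pass (-0.70, SE 0.17, adjusted p = 0.073). PARS2, the mitochondrial proline enzyme, read 7.38 and 7.45 against 7.14 and 6.78 (-0.46, SE 0.15, adjusted p = 0.171). EARS2 (glutamate) differed by -0.42, FARS2 (phenylalanine) by -0.44 and CARS2 (cysteine) by -0.40, with adjusted p of 0.072, 0.110 and 0.081. These 3 also had both knockout arrays below both wild-type arrays, as did 10 of the 15, against 23.5% of all genes.

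WARS2, NARS2, IARS2, SARS2 and RARS2 lay between -0.35 and -0.15 without passing. YARS2, LARS2, HARS2 and VARS2 had differences from -0.10 to 0.01 and overlapping groups. AARS2, for alanine, read 7.50 and 7.55 in wild type, against 7.73 and 7.54 in knockout, the largest difference above 0 (0.11, SE 0.12, adjusted p = 0.743), and its other probe set gave 0.27. For VARS2 the 95% interval was -0.31 to 0.32, which includes the -0.27 of its cytosolic partner VARS1.

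The compartments differed in brightness as well as in their calls. Mean log2 values of the cytosolic members ran from 6.80 to 12.86 with a median of 10.04, and those of the mitochondrial members from 6.98 to 11.29 with a median of 8.22. Median SEs were 0.10 and 0.11. Among the 8675 genes at least as bright as the dimmest synthetase, 7.09% were called lower, 35.7% had both knockout arrays below both wild-type arrays, and the median was -0.04. Of members with a mean of at least 9, 6 of the 14 cytosolic were called, as against 0 of the 3 mitochondrial, where 7.42% of 3813 such genes were called lower. The part of brightness in the difference between compartments was not tested beyond these values.

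Comparing enzymes for the same amino acid sets each cytosolic gene beside its mitochondrial partner. Of 12 pairs with both genes measured, the cytosolic enzyme had the lower difference in 10, with a median gap of -0.35 between the log2 differences. In 9 pairs the gap between the partners in each knockout array lay below that in each wild-type array. The share of other gene pairs with such a gap was not computed, so this count is a description. Of single genes, 23.5% of all and 35.7% of those at least as bright as the dimmest synthetase were lower in this way. The gap was largest for tryptophan, where WARS1 differed by -1.04 and WARS2 by -0.35. WARS2 read 8.12 and 8.01 in wild type, against 7.68 and 7.75 in knockout. For isoleucine the differences were -0.83 (IARS1) and -0.25 (IARS2), for serine -0.70 (SARS1) and -0.18 (SARS2), and for tyrosine -0.52 (YARS1) and -0.10 (YARS2).

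Alanine paired -0.37 (AARS1) with 0.11 (AARS2), leucine -0.46 with -0.05, histidine -0.33 with -0.03, cysteine -0.69 with -0.40 and valine -0.27 with 0.01. Asparagine showed a small gap of -0.07 that did not separate the groups. Arginine (RARS1 -0.07, RARS2 -0.15) and phenylalanine (FARSA -0.19, FARS2 -0.44) went the other way. No test was run on the pairs. With 2 arrays in each group the smallest p an exact permutation test allows is 0.333. Across the 12 pairs, which share the same 4 arrays, the differences of partners correlated at 0.35 (Pearson) and 0.24 (Spearman).

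**Figure D2:**
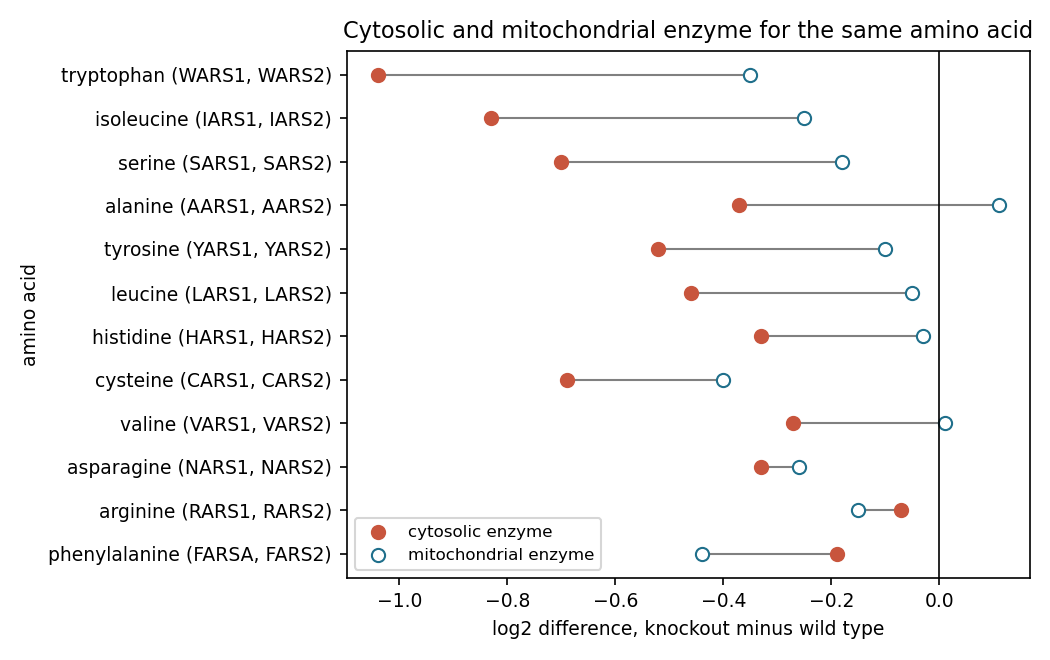
Log2 differences, knockout minus wild type, of the cytosolic (filled) and mitochondrial (open) enzyme for each of 12 amino acids, joined by a line and ordered by the gap. The filled point lies to the left in 10 pairs, and arginine and phenylalanine are the exceptions.

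The medians by array of both compartments were below 0 in both knockout samples and lower in knockout 2. Against the wild-type mean of each gene, the cytosolic median was -0.36 in knockout 1 and -0.45 in knockout 2, compared with -0.03 and 0.03 for the wild-type samples. The mitochondrial members had -0.17 and -0.31, with -0.02 and 0.02 in wild type. All genes had 0.03 and -0.02 in the knockout arrays. Of single probe sets, 11 of 36 for the cytosolic genes and 0 of 33 for the mitochondrial genes were called lower when every probe set was tested, and 0 were called higher. At or above the median brightness of genes, 10 of 28 and 0 of 22 were called lower. Some of the 11 read the same gene, and the share over all probe sets is not given here, so these counts are a description.

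The calls of single synthetases needed all 4 arrays. Leaving out any array ended all 7, with adjusted p from 0.054 to 0.317, although every difference stayed below 0; the calls over all genes then dropped from 1399 to between 37 and 192. SARS1, EPRS1, YARS1 and GARS1 were also not called without the intensity trend in the variance (adjusted p 0.081 to 0.136), where 2.07% of all genes were called lower. IARS1, EPRS1 and GARS1 have only probe sets of a type that may cross-hybridise.

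The chromosomal neighbourhood of each member was examined too. The 10 nearest genes on each side at or above median brightness had median differences between -0.19 and 0.14 around the 7 called members. Around TARS3 and TARS1 the neighbours were lower, with medians of -0.52 (10 neighbours) and -0.32 (20 neighbours), and the part of these stretches in the values of TARS3 and TARS1 was not tested. The medians around the other 31 members ran from -0.25 to 0.20.

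Genes that act beside the synthetases were taken from lists by role. Mitochondrial translation factors fell in 4 of 7, with 0 rising and a median of -0.50, beside 0 of 15 mitochondrial synthetases. The share called lower was 3.94% over all genes and 7.09% over genes at least as bright as the dimmest synthetase. TSFM, the exchange factor of the mitochondrial elongation factor TUFM, read 9.83 and 9.84 in wild type, against 9.29 and 9.27 in knockout (-0.56, adjusted p = 0.021). GFM1, the elongation factor of translocation, differed by -0.62 (adjusted p = 0.042), and the initiation factors MTIF2 and MTIF3 by -0.57 and -0.50 (adjusted p = 0.021 and 0.033). When every probe set was tested, this GFM1 probe set did not pass (adjusted p = 0.058), while a dimmer one did (-0.66, adjusted p = 0.028). Of the cytosolic elongation factors 0 of 4 were called (EEF1A1 -0.02, EEF2 -0.18, lowest adjusted p = 0.277, and 0 at an unadjusted limma p under 0.05).

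Mitochondria make glutaminyl-tRNA by amidation, and GATB, a subunit of that amidotransferase, read 8.20 and 8.15 in wild type, against 7.60 and 7.47 in knockout (-0.64, adjusted p = 0.029). QRSL1, GATC and MTFMT, which formylates the initiator, did not pass, so 1 of 4 fell, where 3.94% of all genes were called lower. In lists this short, 1 call does not set a list apart from that share. SEPSECS, which completes selenocysteinyl-tRNA, fell by 0.63 (adjusted p = 0.039) as the 1 called of 6 genes of that pathway. None of its probe sets passed when every probe set was tested (lowest adjusted p = 0.053), and a dimmer one gave 0.13. TRNT1, which adds the CCA end to transfer RNA, fell by 0.56 (adjusted p = 0.038) as the 1 called of 6 genes of end processing and export. Its probe sets did not pass when every probe set was tested (lowest adjusted p = 0.054). XPOT, the export receptor, differed by -0.57 without passing (adjusted p = 0.182).

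DTD2, which removes wrongly attached amino acids from transfer RNA, had the largest difference among the listed genes that act on transfer RNA. It read 10.15 and 10.09 in wild type, against 7.87 and 8.17 in knockout. That was a log2 difference of -2.10 (SE 0.13, adjusted p = 0.0020), and its second probe set gave -2.27. DTD1 differed by -0.11 and PTRHD1 by -0.06, and neither passed, so 1 of the 3 measured deacylase genes fell, where 3.94% of all genes were called lower.

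Genes of the amino acid response fell in 10 of 16, with 0 rising and a median of -0.69, where 3.94% of all genes were called lower. CHAC1, which degrades glutathione, fell by 2.17, the cystine transporter gene SLC7A11 by 1.28 and ASNS, asparagine synthetase, by 0.96 on the log2 scale (adjusted p = 0.0026, 0.0048 and 0.0043). ATF4 itself read 12.96 and 12.89 in wild type, against 12.77 and 12.79 in knockout, which missed the threshold (-0.15, adjusted p = 0.384); these values are of its mRNA, whereas the factor is controlled mainly in translation. Of 11 GCN2 pathway genes EIF2S1, the alpha subunit of eIF2, fell by 0.66 (adjusted p = 0.015) and 10 did not pass, among them EIF2AK4, which encodes GCN2 (0.28, adjusted p = 0.520). PPP1R15A (0.39, adjusted p = 0.116) and IMPACT (0.82, adjusted p = 0.229) were higher in both knockout arrays without passing. Differences were below 0 in 8 of the 11, against 48% of all genes.

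KDM6B itself read 8.46 and 8.27 in wild type against 7.95 and 8.14 in knockout (-0.32, adjusted p = 0.235, not called), values that cannot check the labels, because a Cas9 cut can leave mRNA levels as they were. G0S2, the gene in the study's title, fell by 2.36 (adjusted p = 0.0028). The hepatocyte markers read high in both groups, with medians over 8 genes of 12.49 to 12.80 by array and ALB and AFP between 13.70 and 13.96. Of these SERPINA1, APOB and FGB fell, where 3.94% of all genes were called lower. Medians of markers by array were 5.02 to 5.24 for fibroblasts (0 of 6 called), 3.85 to 4.42 for endothelium (1 of 6, PECAM1, lower) and 4.68 to 5.34 for leukocytes (1 of 5, LYZ, lower, at 8.95 to 11.27). The leukocyte marker PTPRC read 2.84 to 3.34, under each array's 25th percentile (3.53 to 3.67). The part of any of these in the synthetase values was not tested, and in bulk RNA fewer cells of a type and less RNA per cell cannot be told apart.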

How the data were processed

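Expression was measured on Affymetrix arrays (Human Genome U133 Plus 2.0 annotation) from 2 wild-type and 2 knockout samples, grouped by their titles. The deposited log2 values were made by the authors with RMA and the affy package, per the submitters' processing notes (version not given in the sources used here). That method equalises the arrays' distributions, which removes any change common to most genes. Amplification started from the 3′ end, per the labels' protocols. There were no detection calls, and precision is limited by the number of arrays.

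Of 54613 probe sets, 41091 had 1 gene symbol in the platform annotation, 1801 had several and 11721 had none; 41037 matched RefSeq genes (GRCh38.p14 table) by Entrez identifier. Only the first kind was used, with the brightest probe set per gene. Limma 3.58.1 in R 4.3.3 (lmFit, eBayes with an intensity trend, two-sided) was fitted to all 19775 genes with no further normalization or filter, with 2 residual and 3.62 prior degrees of freedom. The fit was tested on simulated data. Python 3.11.15, NumPy 2.4.6, pandas 2.3.3 and matplotlib 3.10.9 were used for tables and figures.

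The members and lists were chosen with earlier results of these data known. Lists are described by counts and medians, without a list test. Named genes were all called members, the 2 largest differences in each direction per compartment and their partners, and up to 3 called genes of each other list by size; the further members and list genes given with values were added to account for the family after their values had been seen. RefSeq order was used only for neighbours. Alternatives were the variance trend, the probe set rule, 2 normalizations, a filter on dim genes, the replicate number and its crossed pairing as a block, leaving out each array, and the threshold.

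Same-numbered arrays did not deviate together (their replicate differences correlated at -0.55 over genes, which are not independent units), and nothing in the labels pairs them.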

Additional observations from a re-analysis of the deposited data

How the results depend on the processing

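With 2 arrays per group the calls were sensitive to settings. The medians of both compartments stayed below 0 throughout, but they and the gap between them shifted under some settings, as given below. Of the cytosolic synthetases 7 were called lower; 3 were without the intensity trend, 3 (WARS1, SARS1 and CARS1) of 13 still measured once probe sets of the less specific types were dropped, and 0 with any 1 array left out. The other settings, apart from the blocks below, gave 6 to 9. Calls over all genes went from 1399 to 783 without the trend, 826 without the less specific probe sets, 2236 at the 0.10 threshold and 37 to 192 with 1 array left out, where fewer samples entered the fit and the lone array of a group was assumed to vary like the other group. Mitochondrial synthetases called lower numbered 1 with the mean of all probe sets, 1 after repeated quantile normalization (MARS2 in both), 3 without dim genes, 3 at the 0.10 threshold, and 0 without any 1 array. No synthetase was called higher under any setting.

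The replicate number as a block left 175 calls over all genes and 0 cytosolic synthetases, and the crossed replicate block, known from earlier results, gave 3662 calls, 12 cytosolic and 5 mitochondrial. The numbers were not taken as pairing the samples. The cytosolic median of -0.40 was -0.34 with the mean of all probe sets and -0.45 to -0.36 with 1 array left out. The mitochondrial median of -0.25 was -0.18 with the mean of all probe sets and -0.31 to -0.17 over the left-out arrays. The cytosolic minus mitochondrial median of -0.15 was -0.11 without the less specific probe sets and -0.19 to -0.15 over the left-out arrays.

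Of 19 synthetases recomputed one by one, 3 uncalled ones turned sign; the other 14 were not followed gene by gene. KARS1 was -0.01 after median centring, -0.02 after quantile normalization, and -0.02 (without wild type 1) to 0.04 over the left-out arrays. VARS2 was -0.01 after median centring and -0.10 (without wild type 1) to 0.11 over the left-out arrays, with -0.07 without knockout 1. YARS2 was 0.05 without wild type 1 and -0.25 without wild type 2. Beyond the changes in samples and genes tested that the settings make, the cause was not tested.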
